A study of Mus musculus with 34 samples.

Results

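The 10 genes described here are the immediate early genes Nr4a1, Nr4a2, Nr4a3, Fos, Fosb, Jun, Junb, Egr1, Ier2 and Atf3, measured by RNA sequencing in mouse cumulus cells (CCs). They were taken by symbol from the table of read counts, 10 of its 25965 entries, and each symbol matched 1 entry. Nr4a1 was chosen by its read counts after 16 weeks of diet, being lower on high-fat than on chow diet, and the other genes were added as members of the same class, so the 16-week diet difference is given below as a description with no test. Earlier results of these data were known when the members were chosen, and the tests in the other comparisons are to be read with this limit.

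CCs are the somatic cells that surround the oocyte, and each library held about 50 of them, taken from 1 cumulus-oocyte complex of a superovulated C57BL/6J female. Diets and injections began at 8 weeks of age. The groups were chow diet (CD, 11% of energy from fat) for 4 weeks (5 libraries) or 16 weeks (6), high-fat diet (HFD, 58% of energy from fat) for 4 weeks (5) or 16 weeks (7), low weight gainers on the same HFD for 16 weeks (3), saline for 16 days (16 C, 3) and leptin at 100 μg per day for 16 days (16 L, 5). Every animal had hormones for superovulation, including the controls, and the low weight gainers were set apart by their weight and not by a treatment. The study asked how leptin and early or late obesity change the ovary, and the comparisons below ask this of the immediate early genes.

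Immediate early genes are transcribed within minutes of a signal, without new protein synthesis, when kinase cascades such as ERK and protein kinase A act on factors already bound near their start sites. Most of their transcripts are short-lived, and most of their products are transcription factors that switch on later genes. In ovarian follicles the luteinizing hormone surge induces several of them, among them Egr1, Fos and members of the Nr4a family.

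Promoters of these genes are known for binding sites of CREB, SRF and EGR proteins, and the sequences are shown to let the members be compared at the place where such signals act. RefSeq start sites on GRCm38.p6 were found for 8 of the 10 genes, all but Egr1 and Ier2, and the 250 bases before the start were searched on both strands. The short form of the cyclic AMP response element, TGACG, was in 7 of the 8, all but Jun, and in 17.8% of 32851 promoters of the same length. The EGR site GCGNGGGCG was in Nr4a1, Nr4a2 and Fosb (4.7% of all promoters), and the TATA box TATAAA in Nr4a2 and Fos (12.4%). None of the 8 windows held the full element TGACGTCA (1.55%), which contains the short form, the CArG box of SRF (1.47%), the AP-1 site TGANTCA (6.75%) or the NR4A monomer site AAAGGTCA (1.34%). Nr4a1, Nr4a2 and Nr4a3 each held 4 copies of the short form, Fos held 2, and Fosb, Junb and Atf3 held 1. A match is only a run of letters in this window. The 5 promoters below are those of the genes whose levels are followed most closely in the results, 5′ to 3′ on the strand of the gene, with every matched motif in capitals. They lie at chr15:101266596-101266845 on the plus strand (Nr4a1), chr2:57124004-57124253 on the minus strand (Nr4a2), chr12:85473640-85473889 on the plus strand (Fos), chr7:19310046-19310295 on the minus strand (Fosb) and chr8:84978749-84978998 on the minus strand (Junb).
Nr4a1: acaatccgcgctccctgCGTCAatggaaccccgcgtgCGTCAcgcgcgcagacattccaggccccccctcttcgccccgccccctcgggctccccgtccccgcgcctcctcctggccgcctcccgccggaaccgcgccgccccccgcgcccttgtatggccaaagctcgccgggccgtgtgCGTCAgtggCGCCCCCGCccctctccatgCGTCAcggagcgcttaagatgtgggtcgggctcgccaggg
Nr4a2: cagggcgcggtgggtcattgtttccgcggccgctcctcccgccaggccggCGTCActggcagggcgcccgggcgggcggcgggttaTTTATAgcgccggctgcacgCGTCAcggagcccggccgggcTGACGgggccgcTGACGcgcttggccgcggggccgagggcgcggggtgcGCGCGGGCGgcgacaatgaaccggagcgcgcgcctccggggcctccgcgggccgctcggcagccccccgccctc
Fos: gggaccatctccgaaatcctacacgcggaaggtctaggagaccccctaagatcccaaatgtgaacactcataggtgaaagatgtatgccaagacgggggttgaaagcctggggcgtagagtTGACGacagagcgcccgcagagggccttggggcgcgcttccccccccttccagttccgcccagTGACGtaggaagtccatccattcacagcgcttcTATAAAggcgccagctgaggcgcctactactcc
Fosb: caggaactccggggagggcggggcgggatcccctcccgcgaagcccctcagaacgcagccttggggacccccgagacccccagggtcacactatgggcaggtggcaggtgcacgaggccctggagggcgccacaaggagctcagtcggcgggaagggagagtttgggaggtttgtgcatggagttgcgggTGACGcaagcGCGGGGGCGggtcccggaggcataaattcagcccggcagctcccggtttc
Junb: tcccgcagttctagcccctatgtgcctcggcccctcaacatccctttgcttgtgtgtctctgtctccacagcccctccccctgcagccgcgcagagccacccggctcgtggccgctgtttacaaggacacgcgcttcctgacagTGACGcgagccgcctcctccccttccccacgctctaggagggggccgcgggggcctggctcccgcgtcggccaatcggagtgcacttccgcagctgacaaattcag

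The libraries held 1104611 to 13207018 counted reads. Levels are given as RPM, the reads of a gene divided by the counted reads of its library and scaled to 10 to the power of 6. Summed markers of cumulus and granulosa cells were between 2042 and 24622 RPM in every library, at 9993 to 24622 RPM in 16 C and at 4770, 10662, 2904, 2093 and 3423 RPM in 16 L replicates 18, 19, 20, 21 and 23. Summed markers of cumulus expansion were at least 550 RPM in all libraries but 1. That library, 16 L replicate 18, had 34.3 RPM of expansion markers, with 3 of the 8 genes at 0 reads, and 31735 RPM of 8 oviduct epithelium markers, against 143 to 493.2 RPM in the diet libraries and 130 to 162 RPM in 16 C. It also had 9805 RPM of red blood cell markers and 1514 RPM of theca and stroma markers. Oviduct markers were at 161, 1881, 2498 and 895 RPM in 16 L replicates 19, 20, 21 and 23, so the fitted results on leptin are given with and without replicate 18. In such pools of cells, fewer cells of a type and less RNA per cell cannot be told apart.

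Per kilobase of exon (GENCODE M21), the mean level over the 34 libraries ran from an RPM per kilobase of 44.1 for Ier2, through 28.7 for Junb, 28.7 for Egr1, 17.5 for Jun, 16.2 for Fos and 8.96 for Nr4a1, to 2.56 for Nr4a2, 1.15 for Fosb, 0.724 for Atf3 and 0.287 for Nr4a3. Atf3 and Nr4a3 had 0 reads in 5 libraries each and at most 3 reads in 11 (Nr4a3) and 16 (Atf3). Fosb had 0 reads in 2 libraries and at most 3 in 9. A count of 0 allows up to 3 reads at 95% confidence, for counting error only. Jun shares 689 bases with BC042782 on the opposite strand, whose entry held 708 reads against 8849 for Jun, and since the strand setting of the counting is not stated its reads are uncertain to that extent.

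**Figure D1:**
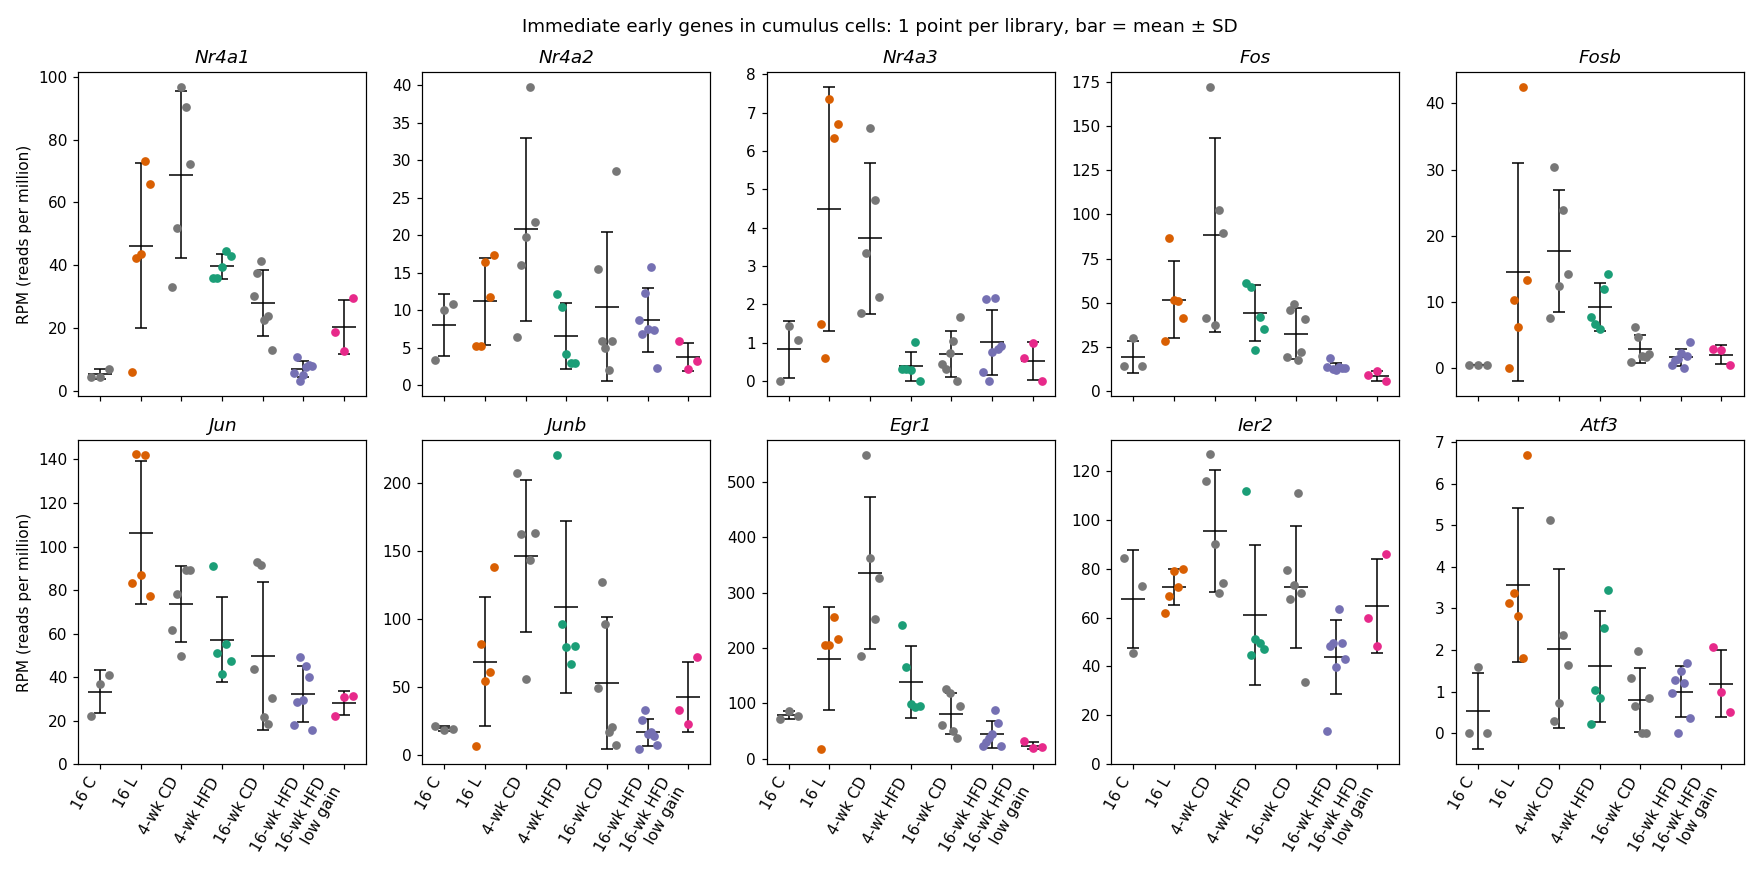
Level of each of the 10 immediate early genes in RPM (vertical axis, linear, own scale per gene) in the 7 groups, with 1 point per library and bars for mean ± SD. Nr4a1 lies between 3.18 and 10.7 RPM in 16-week HFD, below every 16-week CD library, and 7 of the 10 genes have their highest mean in 4-week CD.

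The NR4A genes encode orphan nuclear receptors that act without a known hormone ligand. Nr4a1 (chr15:101266846-101274792, plus strand), known for its part in the steroid-making response of ovarian cells, had its highest mean in 4-week CD, 68.9 ± 26.6 RPM (SD, n = 5). The order then ran 16 L (46.3 ± 26.3, n = 5), 4-week HFD (39.8 ± 3.98, n = 5), 16-week CD (28.1 ± 10.5, n = 6), low weight gainers (20.4 ± 8.55, n = 3), 16-week HFD (6.99 ± 2.45, n = 7) and 16 C (5.34 ± 1.58, n = 3). Neighbours in this order overlapped, except that all low weight gainers lay above all 16-week HFD libraries. The saline controls had about the level of the 16-week HFD mice, not that of the CD groups. Injection and diet were separate protocols, and the labels give no diet for the injected mice. Differences between saline and diet groups therefore cannot be told apart from differences between the protocols. The 4-week and 16-week groups also differed in age, since all diets began at 8 weeks of age. For all members, time on diet and age cannot be told apart in the order of these groups. On TMM-normalized counts (CPM), a scale corrected for library composition, the means were 7.76 in 16 C, 8.38 in 16-week HFD and 26.2 in 16-week CD.

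Nr4a2 (chr2:57106830-57124003, minus strand), a relative of Nr4a1 known from dopamine neurons, was highest in 4-week CD (20.8 ± 12.2 RPM, SD, n = 5) and lowest in the low weight gainers (3.82 ± 1.90, n = 3). All neighbours in its order overlapped. Nr4a3 (chr4:48045153-48086447, plus strand), the third receptor, stood at 4.50 ± 3.18 RPM in 16 L (n = 5) and 3.72 ± 1.97 in 4-week CD (n = 5). Its means in the other 5 groups lay between 0.387 and 1.01 RPM, close to the detection limit of these libraries.

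The FOS and JUN proteins pair to form AP-1, a factor of growth and stress responses. Fos (chr12:85473890-85477273, plus strand) ran from 88.6 ± 54.9 RPM in 4-week CD (n = 5) to 13.8 ± 2.33 in 16-week HFD (n = 7) and 8.62 ± 2.86 in low weight gainers (n = 3), and only these last 2 neighbours did not overlap. Fosb (chr7:19302721-19310045, minus strand), its relative, ranged from 17.7 ± 9.24 RPM in 4-week CD (n = 5) to 0.540 ± 0.0165 in 16 C (n = 3). Jun (chr4:95049034-95052222, minus strand), the main partner, was highest in 16 L (106 ± 33.0 RPM, n = 5) and lowest in low weight gainers (28.1 ± 5.34, n = 3). Junb (chr8:84976909-84978748, minus strand), a partner with weaker activity than Jun, ran from 146 ± 55.8 RPM in 4-week CD (n = 5) to 16.9 ± 10.1 in 16-week HFD (n = 7).

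Egr1 (chr18:34859823-34864984, plus strand), a zinc finger factor that mediates responses to luteinizing hormone, had 335 ± 137 RPM in 4-week CD (n = 5) and 23.9 ± 6.89 in low weight gainers (n = 3). Ier2 (chr8:84661331-84662852, minus strand), a nuclear protein of poorly known function, had group means from 43.9 ± 15.3 RPM in 16-week HFD (n = 7) to 95.4 ± 25.1 in 4-week CD (n = 5). On TMM-normalized CPM its highest mean was 96.9 in 16 C, against 77.7 in 4-week CD. Atf3 (chr1:191170296-191183340, minus strand), a stress-induced factor of the ATF/CREB family, had group means of 0.530 to 3.57 RPM. Among the neighbours in the order of these 3 genes, all overlapped.

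Leptin injections were compared with saline to ask what added leptin does in CCs. Nr4a1 stood at 42.3, 43.6, 73.3 and 66.0 RPM in 16 L replicates 19, 20, 21 and 23, at 6.11 RPM in replicate 18, and at 4.47, 4.39 and 7.16 RPM in 16 C. Of the leptin libraries, 4 of 5 lay above every control, and replicate 18 lay within the controls. The log2 fold change was 2.20 ± 0.63 (SE), and its adjusted p of 0.0563 in the quasi-likelihood test of edgeR, adjusted by Benjamini-Hochberg, missed the threshold of 0.05. Without replicate 18 the value was 2.38 ± 0.34 with an adjusted p of 0.000693, and leaving out any other library gave adjusted p up to 0.212 and no call.

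Fosb showed the widest gap of the members, with 10.4, 6.22, 42.5 and 13.4 RPM in 16 L replicates 19, 20, 21 and 23, 0 RPM in replicate 18, and 0.559, 0.530 and 0.530 RPM in 16 C. The control level rested on 10 reads in all, 1, 7 and 2 per library. Its log2 fold change was 3.72 ± 1.45 (adjusted p = 0.115), and 3.93 ± 0.81 without replicate 18 (adjusted p = 0.00438), with no call and adjusted p up to 0.294 without any other library.

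Junb was at 81.9, 54.9, 61.6 and 138 RPM in the same 4 leptin libraries, 7.16 RPM in replicate 18, and 21.8, 18.4 and 19.4 RPM in 16 C. Replicate 18 was thus the lowest library of the experiment and the other leptin libraries were the highest. The log2 fold change was 0.89 ± 0.63 (adjusted p = 0.350), and 1.09 ± 0.34 without replicate 18 (adjusted p = 0.0270). It was 0.53 without replicate 23, the highest library, and adjusted p ran up to 0.601 in the fits with 1 library left out.

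Egr1 followed the same pattern in RPM, with 18.3 in replicate 18, 205 to 256 in the other leptin libraries and 72.7 to 87.2 in 16 C, but its log2 fold change was 0.28 ± 0.58 (adjusted p = 0.769), or 0.47 ± 0.24 without replicate 18 (adjusted p = 0.141). Fos had 28.2 to 86.6 RPM in 16 L and 13.97 to 29.9 in 16 C, with a log2 fold change of 0.54 ± 0.44 (adjusted p = 0.418), or 0.51 ± 0.42 without replicate 18 (adjusted p = 0.350). Jun had 77.2 to 143 RPM in 16 L and 22.4 to 40.8 in 16 C, and 5 of 5 leptin libraries lay above every control in RPM though not on TMM-normalized counts. Its log2 fold change was 0.86 ± 0.39 (adjusted p = 0.160), or 0.73 ± 0.35 without replicate 18 (adjusted p = 0.123).

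Ier2 did not share the pattern. It had 62.0 to 79.9 RPM in 16 L, within the 45.4 to 84.4 RPM of 16 C, whereas on TMM-normalized CPM every leptin library lay below every control. The share of all genes whose groups did not overlap was counted only in RPM, where it was 31.3%, so nothing is read from this separation. Ier2 had a log2 fold change of -0.67 ± 0.29 (adjusted p = 0.150), or -0.80 ± 0.23 without replicate 18 (adjusted p = 0.0210), with adjusted p up to 0.398 without any other library. Nr4a2 (-0.46 ± 0.56, adjusted p = 0.595) and Nr4a3 (1.21 ± 1.01, adjusted p = 0.427) did not pass the test, nor without replicate 18 (-0.46 ± 0.54, adjusted p = 0.515, and 1.21 ± 0.99, adjusted p = 0.346). Atf3 had too few reads for the fit. Its levels of 1.81 to 6.69 RPM in 16 L lay above the 0, 1.59 and 0 RPM of 16 C, which gave p = 0.0357 in an exact two-sided permutation test of log2(RPM + 1), the smallest p this design allows, and 0.125 after adjustment over 7 such tests.

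Jun and Atf3 were the 2 members whose groups did not overlap in RPM, both higher in 16 L, where 31.3% of all genes did not overlap and 26.8% were higher. In this comparison 0 of the 9 members that passed the filter on low counts were called, against 8.56% of 11723 genes, and 3 of the 9 had an unadjusted p under 0.05 in edgeR against 32.4% of all genes. A log2 fold change above 0 was found for 7 of the 9 and for 58.8% of all genes. DESeq2 called 2, Nr4a1 and Fosb, against 19.2% of its genes. Without replicate 18, edgeR called 4, Nr4a1, Fosb and Junb higher and Ier2 lower, but 41.8% of all genes were then called, so a share of 4 in 9 is near that of any gene. The scale mattered here, since over all genes tested the median log2 fold change was 0.27 with TMM and 1.08 with total counts. Relative to that median, 7 of the 9 members lay above and Ier2 and Nr4a2 below with TMM. On total counts Ier2 and Nr4a2 turned above 0, to 0.12 and 0.44, but stayed below the median of 1.08.

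**Figure D2:**
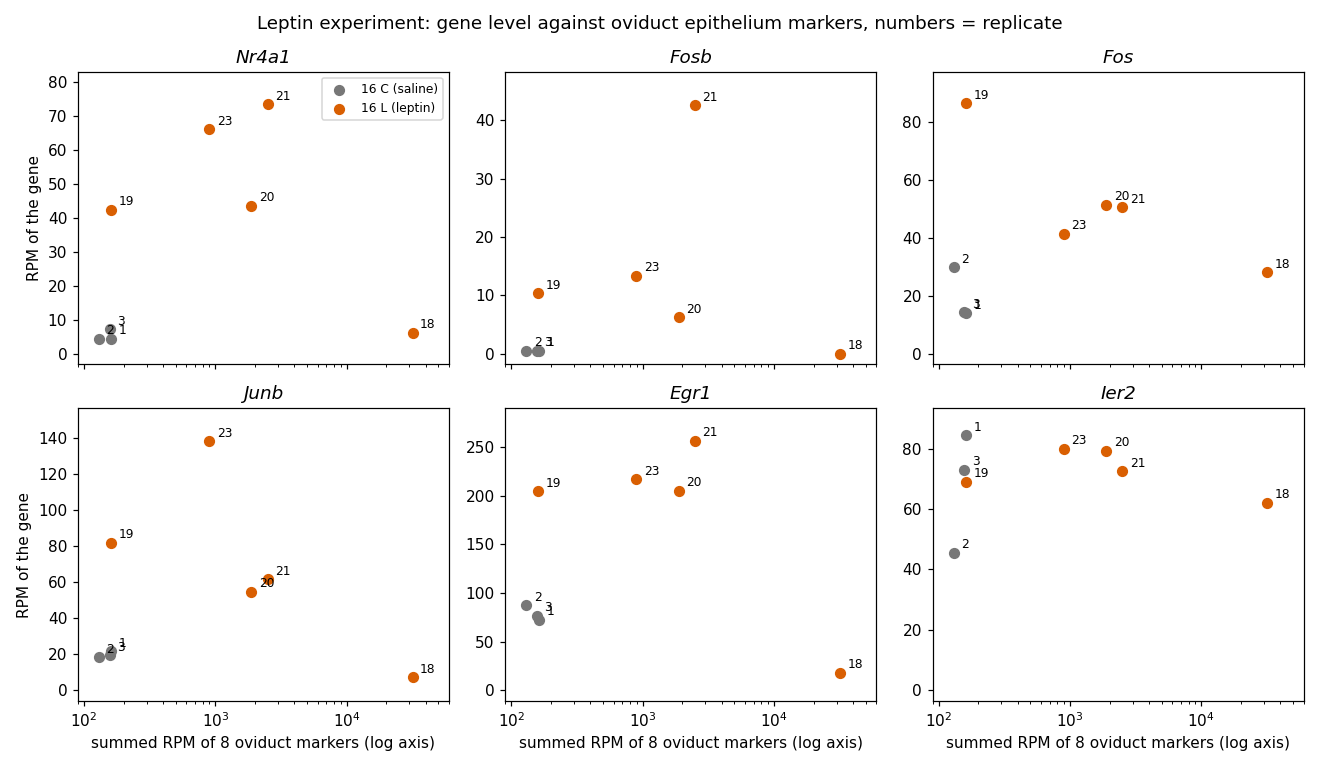
Level of 6 immediate early genes in RPM (vertical axis, linear) against the summed RPM of 8 oviduct epithelium markers (horizontal axis, log scale) in the 3 saline (16 C) and 5 leptin (16 L) libraries, 1 point per library with its replicate number. Replicate 18, at 31735 RPM of markers, has 6.11 RPM of Nr4a1, and replicate 19, at 161 RPM as in the controls, has 42.3 RPM.

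Markers of oviduct, leukocytes and the cumulus cells themselves moved with the leptin group, and their part in the member levels was not tested. Leptin replicate 19 had sums of oviduct, leukocyte, red blood cell and cumulus and granulosa markers within the range of the controls. Its expansion markers, at 1089 RPM, were below the 1199 to 1660 RPM of 16 C. Its sums of endothelium, theca and stroma, and oocyte markers also lay outside the range of the controls. This library had 42.3 RPM of Nr4a1, 10.4 of Fosb and 81.9 of Junb, each above all controls. With the 3 libraries highest in oviduct markers left out, a choice made after seeing the data, 2 leptin libraries remained, replicate 19 and replicate 23 with its 895 RPM of these markers. Nr4a1 then had a log2 fold change of 2.44 ± 0.42 (adjusted p = 0.00587), Fosb 3.51 ± 0.71 (adjusted p = 0.0103) and Junb 1.58 ± 0.35 (adjusted p = 0.0137) in edgeR's quasi-likelihood test, where 24.9% of all genes were called. This fit is no test of the part of the markers, because replicate 23 itself lay above every control in oviduct and leukocyte markers. Summed macrophage and leukocyte markers were 1339 and 1582 RPM in replicates 20 and 23, against 82.5 to 487 RPM in 16 C and 88.2 RPM in replicate 19. Summed cumulus and granulosa markers were lower than in every 16 C library in 4 of 5 leptin libraries, all but replicate 19, while 0 of 8 tested genes of that list were called.

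The 4-week diet comparison asked what short exposure to fat does. Egr1 had 186, 548, 362, 251 and 325 RPM in CD and 241, 165, 98.4, 93.5 and 95.4 RPM in HFD. Of the HFD libraries, 4 of 5 lay below every CD library. The log2 fold change was -1.18 ± 0.36 (SE), with an adjusted p of 0.0741 in edgeR's quasi-likelihood test.

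Nr4a2 had 6.47, 16.0, 19.8, 39.9 and 21.8 RPM in CD and 12.2, 10.5, 4.22, 3.04 and 2.95 RPM in HFD. CD replicate 11, at 6.47 RPM, fell among the HFD libraries and the other CD libraries lay above them all. The log2 fold change was -1.45 ± 0.48 (adjusted p = 0.0896). Nr4a1 had 33.2, 51.7, 96.8, 90.5 and 72.1 RPM in CD and 36.1, 35.8, 39.4, 44.6 and 43.0 RPM in HFD, so again 4 CD libraries lay above all HFD libraries and replicate 11 below them. Its log2 fold change was -0.67 ± 0.27 (adjusted p = 0.140).

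Nr4a3 failed the filter on low counts, with 61 reads in CD and 13 in HFD. Its levels were 1.78, 3.33, 6.60, 4.72 and 2.18 RPM in CD and 0.324, 0.316, 0.281, 1.01 and 0 RPM in HFD, and the groups did not overlap. The exact two-sided permutation test of log2(RPM + 1) gave a difference of -1.71 with p = 0.00794, the smallest it can give here, and 0.0556 after adjustment over 7 tests. Among genes that passed the filter, 6.86% had groups that did not overlap and 4.94% had HFD levels below all CD levels, and Nr4a3 was the 1 member that did.

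Fos (-0.92 ± 0.40, adjusted p = 0.174) and Fosb (-0.90 ± 0.39, adjusted p = 0.167) did not pass the test, and without CD replicate 1, the library highest in both, they were -0.43 and -0.52. Ier2 (-0.56 ± 0.30, adjusted p = 0.256), Junb (-0.31 ± 0.36, adjusted p = 0.614) and Jun (-0.25 ± 0.25, adjusted p = 0.558) did not pass either. For Ier2, 4 of 5 HFD libraries, at 44.9 to 51.0 RPM, lay below every CD library, at 70.0 to 127 RPM. HFD replicate 13 had the highest Jun, Junb and Ier2 of its group, 91.2, 221 and 112 RPM, against at most 55.0, 96.3 and 51.0 RPM in the other 4. Without it, the log2 fold change of Ier2 was -0.90 ± 0.27 (adjusted p = 0.0819), that of Junb -0.73 ± 0.32 (adjusted p = 0.194) and that of Jun -0.47 ± 0.24 (adjusted p = 0.251). Atf3, at 0.303 to 5.13 RPM in CD and 0.216 to 3.44 in HFD, gave p = 0.770 in the exact permutation test.

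Of the 8 members that passed the filter, 0 were called against 4.26% of 11727 genes, 5 had an unadjusted p under 0.05 in edgeR against 24.3%, and 8 had a log2 fold change below 0 against 50.7%. DESeq2 called 3, Nr4a2, Nr4a3 and Egr1, where it called 9.76% of genes. Leaving out CD replicate 11 from edgeR's fit gave 4 calls, Nr4a1 (-0.85, adjusted p = 0.0209), Nr4a2 (-1.69, adjusted p = 0.0224), Fosb (-1.11, adjusted p = 0.0485) and Egr1 (-1.34, adjusted p = 0.0240), with 14.4% of all genes called. The other 9 fits with 1 library left out called 0 of the members. CD replicate 11 had 560 RPM of summed macrophage and leukocyte markers, against 58.7 to 268 RPM in the other 4-week CD libraries. The part of these markers was not tested. HFD replicate 5 held 405 RPM of oocyte markers, against at most 17.4 RPM in any other library. Its levels of 43.0 RPM for Nr4a1 and 95.4 RPM for Egr1 lay within those of the other HFD libraries, as did Fos, Jun, Junb and Ier2. It was the lowest HFD library for Nr4a2 (2.95 RPM) and Nr4a3 (0 RPM), and the highest for Fosb (14.3 RPM) and Atf3 (3.44 RPM). The part of the oocyte markers was not tested. Of 8 tested cumulus and granulosa markers, 1 was called, Fshr, the receptor of follicle-stimulating hormone. It rose in HFD by 1.87 ± 0.42 on the log2 scale (adjusted p = 0.0281 in edgeR), and its part in the member levels was not tested. The median log2 fold change of these 8 markers was 0.086, against -0.0099 for all genes.

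**Figure D3:**
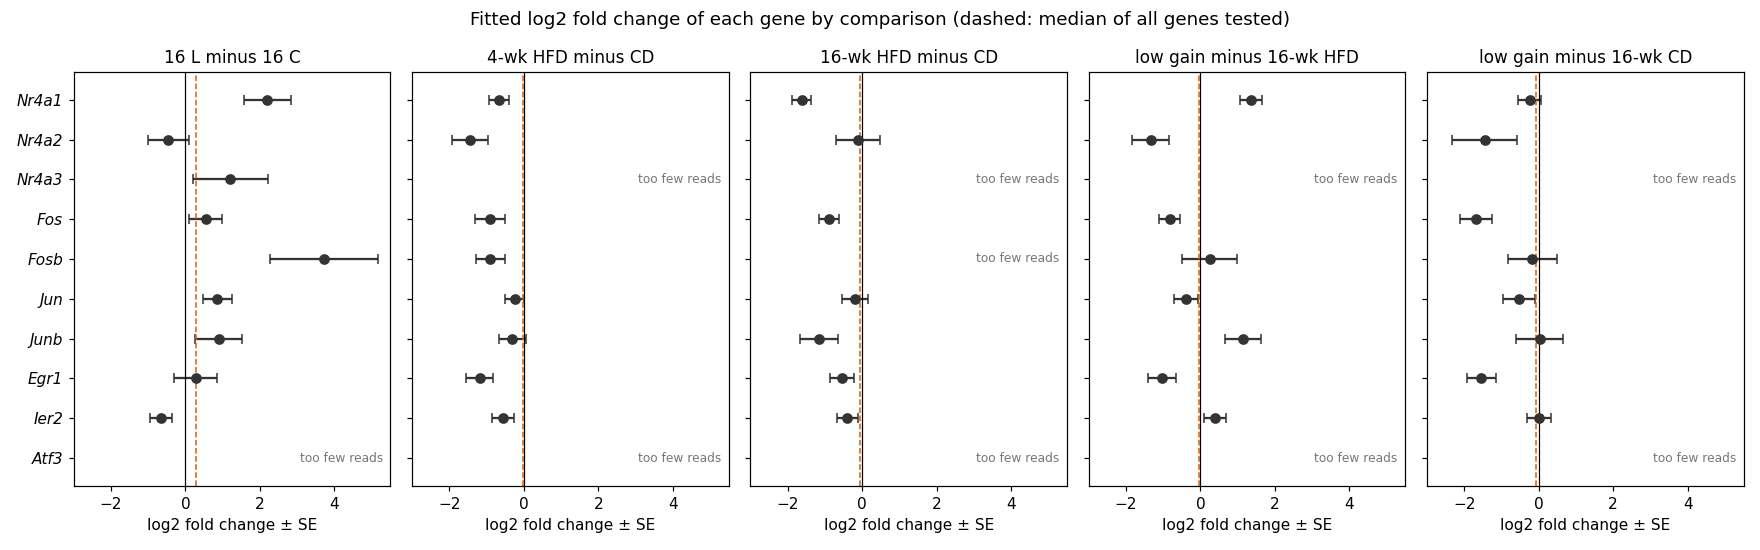
Fitted log2 fold change of each gene (horizontal axis, points, with bars of 1 SE) in the 5 comparisons, with the median of all genes tested as a dashed line and genes with too few reads marked. The members lie on both sides of 0 in the leptin comparison and all those fitted lie below 0 in the 4-week and 16-week diet comparisons.

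After 16 weeks of diet, the comparison that chose the set, Nr4a1 had 13.02 RPM at the lowest, 27.0 at the median and 41.5 at the highest of the 6 CD libraries. In the 7 HFD libraries it had 3.18 RPM at the lowest, 7.68 at the median and 10.7 at the highest. The groups did not overlap, and the log2 fold change was -1.62 ± 0.26 (SE). Fos came next to it in separation, with 6 of 7 HFD libraries (12.0 to 13.7 RPM) below every CD library (17.5 to 49.4 RPM), HFD replicate 11 at 18.9 RPM, and a log2 fold change of -0.90 ± 0.26.

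Junb had a log2 fold change of -1.15 ± 0.51, but its CD libraries spread from 7.35 to 127 RPM around the 4.34 to 33.6 RPM of HFD. Egr1 (-0.54 ± 0.33), Ier2 (-0.40 ± 0.28), Jun (-0.18 ± 0.35) and Nr4a2 (-0.11 ± 0.59) also had overlapping groups. Fosb (2.92 ± 2.06 RPM in CD, n = 6, and 1.62 ± 1.31 in HFD, n = 7), Nr4a3 and Atf3 did not pass the filter. Of the 7 members that passed, Nr4a1 was the 1 whose groups did not overlap, where 0.875% of 10861 genes did not. The 7 had a log2 fold change below 0, as did 53.4% of all genes. Nothing is read from these counts, because the choice of members used these libraries.

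The low weight gainers received the same HFD for 16 weeks. They were compared with each 16-week group, which share their libraries with the comparison above, so Nr4a1 is again described only. It had 18.8, 12.7 and 29.6 RPM in low weight gainers, all above the 16-week HFD libraries and inside the range of 16-week CD except for replicate 22, which was just below it. Its log2 fold change was 1.35 ± 0.29 (SE) against 16-week HFD and -0.25 ± 0.31 against 16-week CD.

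Fos went the other way. It had 9.04, 11.2 and 5.57 RPM in low weight gainers, below all 7 HFD libraries (lowest 12.0, median 13.1, highest 18.9 RPM) and all 6 CD libraries (17.5 to 49.4 RPM). It fell against 16-week HFD by 0.83 ± 0.29 on the log2 scale, with an adjusted p of 0.0482 in edgeR's quasi-likelihood test, where 20.7% of 11258 genes were called and 9.93% were called lower. It was the 1 call among 7 members tested, Nr4a1 not counted. Of all genes, 18.5% had groups that did not overlap in RPM, and 5.6% of all genes were lower in that way. The adjusted p was 0.0358 in DESeq2 but between 0.0507 and 0.320 in the other 5 settings, and 2 of 10 fits with 1 library left out kept the call. Without low weight gainer replicate 23 the log2 fold change was -0.55 (adjusted p = 0.274). Against 16-week CD the log2 fold change was -1.69 ± 0.44 with an adjusted p of 0.257.

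Egr1 had 31.7, 18.7 and 21.3 RPM in low weight gainers, below all CD libraries (37.0 to 126 RPM) with 2 of 3 also below all HFD libraries (22.4 to 87.6 RPM) and replicate 21 among them. Its log2 fold change was -1.55 ± 0.39 against CD (adjusted p = 0.257) and -1.04 ± 0.37 against HFD (adjusted p = 0.0584). Fos and Egr1 were the 2 members whose groups did not overlap against CD, both lower, where 6.93% of all genes did not overlap and 5.04% were lower. Against CD, edgeR called 0 of 7 members, Nr4a1 not counted, where 0.00861% of 11620 genes were called, and 2 members, Fos and Egr1, had an unadjusted p under 0.05 against 11.2% of genes. DESeq2 called the same 2 genes (adjusted p = 0.0206 and 0.0169), where it called 1.81% of genes.

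Junb had 33.1, 23.2 and 71.9 RPM in low weight gainers, with log2 fold changes of 1.15 ± 0.48 against HFD (adjusted p = 0.104) and 0.021 ± 0.63 against CD (adjusted p = 0.996). Nr4a2 had log2 fold changes of -1.34 ± 0.49 against HFD (adjusted p = 0.0582) and -1.45 ± 0.87 against CD (adjusted p = 0.558), neither called, and -0.52 against CD without CD replicate 9, its highest library. Jun, Ier2 and Fosb had log2 fold changes between -0.53 and 0.39 in both comparisons, with adjusted p of 0.338 to 0.999 in edgeR. Nr4a3 and Atf3 had at most 2.08 RPM in these libraries and exact permutation p of 0.433 to 0.717. Of the markers, cumulus expansion genes summed to 1005 to 1022 RPM in low weight gainers, 973 to 2674 in HFD and 758 to 2460 in CD, and 2 of 5 tested expansion genes, Vcan and Ptgs2, fell against HFD. Against HFD, 1 of 8 tested leukocyte markers was called, S100a8, which rose by 4.72 ± 1.12 on the log2 scale (adjusted p = 0.0185 in edgeR). The median log2 fold change of these 8 was 0.57, against -0.030 for all genes. Summed leukocyte markers, at 298 to 309 RPM in low weight gainers, lay within the 100 to 599 RPM of HFD. Of 9 tested cumulus and granulosa markers, 1 was called lower, Inhba (-1.07 ± 0.27, adjusted p = 0.0110), and 1 higher, Amhr2 (0.94 ± 0.30, adjusted p = 0.0326). Their part in the member levels was not tested.

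Across the 34 libraries, whose values share the groups' treatments and 1 normalization, Nr4a1 correlated most with Fosb (Pearson's r = 0.74), Junb (0.68) and Egr1 (0.56) on log2 TMM-normalized CPM. It had r = 0.48 with Fos, 0.26 with Jun, 0.013 with Ier2 and 0.0045 with Nr4a2. With group means removed, r with Fosb was 0.53, with Egr1 0.49, with Junb 0.38 and with Fos -0.028. Fos and Egr1 formed the closest pair of all (0.78, and 0.44 with group means removed). Over all 45 pairs the median r was 0.28, and 0.12 with group means removed, and 40 pairs were above 0. Ier2 stood apart, with r between -0.43 (Atf3) and 0.28 (Junb), and no member had an r with log2 depth outside -0.20 to 0.20.

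**Figure D4:**
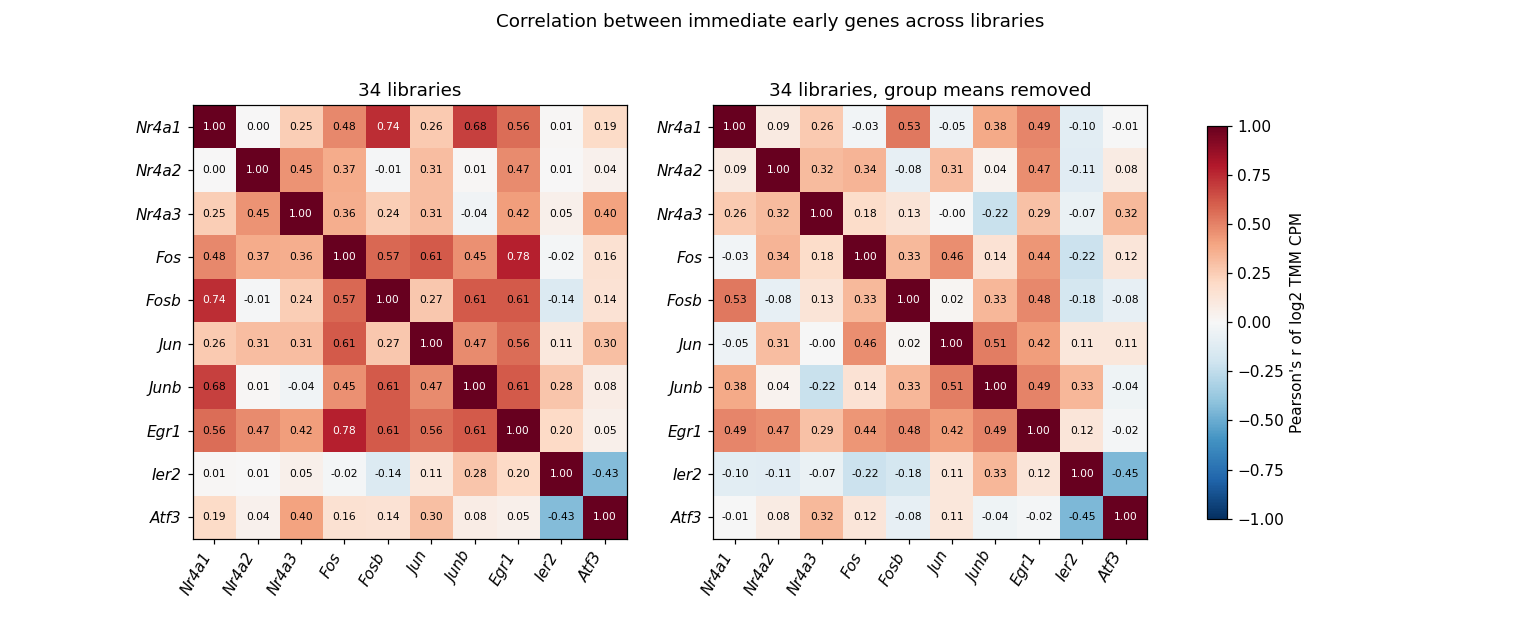
Pearson's r between each pair of the 10 genes over 34 libraries on log2 TMM-normalized CPM (color scale from -1 to 1), as measured (left) and with group means removed (right). Fos with Egr1 has the highest value, 0.78, the 6 pairs among Nr4a1, Fosb, Junb and Egr1 lie between 0.56 and 0.74, and Ier2 and Nr4a2 have values near 0 with Nr4a1.

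Among 10863 genes with a mean of at least 20 reads, the 5 whose levels were most like those of Nr4a1 were Trim26 (r = 0.91), Tmem43 (0.91), Tspyl2 (0.90), 8430419L09Rik (0.90) and Cln3 (0.89). Fosb, the member nearest to Nr4a1, ranked 933rd in this order. The same 5 led on log2 RPM, but 0 of them were among the first 5 once group means were removed.

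Other genes of the pathway were counted in lists, which were chosen with earlier results of these data known. In 16 L, 31 of 40 related immediate early genes were tested, 2 rose and 5 fell, where 8.56% of all genes were called, and the median log2 fold change was 0.35 against 0.27 for all genes. The 2 that rose were Jund, an AP-1 subunit (log2 fold change 2.98 ± 0.80, adjusted p = 0.0486), and Dusp5, a phosphatase that turns off ERK (2.38 ± 0.56, adjusted p = 0.0364). Among the 5 that fell were the antiproliferative gene Btg1 (-2.92 ± 0.70, adjusted p = 0.0380) and Myc, a transcription factor of growth (-2.64 ± 0.54, adjusted p = 0.0270).

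Among upstream kinases and factors, 5 of 33 rose and 1 fell in 16 L, beside the same 8.56% of all genes. Braf, a kinase at the head of the ERK cascade, fell by 3.20 on the log2 scale (SE 0.46, adjusted p = 0.0114). Rps6ka4, a kinase that acts on CREB and histone H3, rose by 2.57 ± 0.51 on that scale (adjusted p = 0.0249), the CREB coactivator gene Crtc1 by 2.00 ± 0.44 (adjusted p = 0.0309), and Mapk3, which encodes ERK1, by 1.81 ± 0.37 (adjusted p = 0.0263). Of the partners and inhibitors, 1 of 11 rose, Mafk (1.88 ± 0.48, adjusted p = 0.0431). Of the heat shock genes, which mark handling stress, 0 of 4 were called in either the leptin or the 4-week diet comparison. Their median log2 fold change was 1.40 in 16 L, against 0.27 for all genes, and -0.070 in 4-week HFD, against -0.0099. The part of handling in the member levels was not tested. Without 16 L replicate 18, where 41.8% of all genes were called, 9 related immediate early genes rose and 8 fell of 31, 14 upstream genes rose and 4 fell of 32, 4 partners rose and 1 fell of 11, and 1 of 4 heat shock genes rose. The 9 genes named here from these lists kept their direction in each of the 8 fits with 1 library left out. Braf was called in 6 of the 8, and the other 8 genes in 2, those without 16 L replicates 18 or 19, with adjusted p up to 0.192 in edgeR.

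In 4-week HFD, 2 of 32 related immediate early genes fell, where 4.26% of all genes were called. They were Maff (-1.36 ± 0.35, adjusted p = 0.0408) and Ier5 (-1.05 ± 0.28, adjusted p = 0.0452), and the list median was -0.23 against -0.0099 for all genes. Among the upstream genes 1 of 33 fell, Crebbp, the coactivator of CREB (-1.04 ± 0.26, adjusted p = 0.0386), and 0 of 11 partners and inhibitors were called. Of the 10 fits with 1 library left out, Maff and Ier5 were called in 1, without CD replicate 11, and Crebbp in 3. Low weight gainers against 16-week HFD had 3 related immediate early genes higher and 2 lower of 31, and 3 upstream genes higher and 5 lower of 32, where 20.7% of all genes were called. Against 16-week CD, and between the 16-week diets, 0 genes of these lists were called.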

How the data were processed

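RNA from cumulus cells of 34 mice was sequenced by the Smart-seq2 oligo-dT method, and the authors deposited whole-number read counts per gene and library, without normalization. The submitters' processing notes name Trim Galore 0.4.2, HISAT2 2.0.5 and GRCm38, and the counting program and strand setting are not given in the sources used here. Groups came from the sample labels. The methods give 1 animal per library, and p-values measure the spread between libraries. Differences between animals, between pools of cells and between library preparations cannot be told apart in that spread.

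Tests used edgeR 4.0.16 in R 4.3.3 (TMM, filterByExpr, robust quasi-likelihood F-test, two-sided) on all genes of the groups compared, with Benjamini-Hochberg adjustment and a call at 0.05. The fits were tested on simulated data. DESeq2 1.42.0, RLE or total-count scaling, no filter, at least 10 counts in every library, 1 fit of all 34 libraries and leaving out libraries were alternatives. Members that failed the filter had an exact permutation test on log2(RPM + 1), with a pseudocount of 0.1 as alternative. The members and gene lists were chosen with earlier results of these data known. Named genes were the 10 members, up to 4 called genes per list with the largest change in 16 L or 4-week HFD, and the 5 genes most like Nr4a1. Atf7 was left out of its list after its values were seen, because its symbol has more than 1 entry.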

Additional observations from a re-analysis of the deposited data

Results flagged for a closer look

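Of 50 sets of values, each 1 gene in 1 group of 5 to 7 libraries, 5 held a library far from the others by Dixon's criterion, which flags about 1 in 20 groups by chance. In 4-week HFD, replicate 13 was the highest for Jun (91.2 RPM), Junb (221 RPM) and Ier2 (112 RPM), so 3 of the 5 belong to 1 library. Egr1 in 16 L replicate 18 was the lowest of 5 at 18.3 RPM, in the library with the high oviduct markers. Fos in 16-week HFD replicate 11 was the highest of 7 at 18.9 RPM. There were 0 genes whose diet effect was opposite in every mouse at 4 and 16 weeks.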

How the results depend on the processing

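Counts of calls moved with the settings more than the direction of the fold changes did. For 16 L against 16 C, 1004 of all genes were called, and 2382 with DESeq2, 4035 scaled by total counts, 504 with no filter, 4384 with all 34 libraries in 1 fit and 2857 without 16 L replicates 18, 20 and 21, a setting chosen after seeing the data. Members called were 0 at first, then 2 with DESeq2, 4 by total counts, 2 with all 34 libraries and 3 without those replicates. For 4-week HFD against CD, 499 genes became 1292 with DESeq2 and 69 with all 34 libraries, and 0 members became 3 with DESeq2 and 1 each by total counts and with no filter. For low weight gainers against 16-week HFD, 2330 genes became 487 with all 34 libraries, and 1 member, Fos, with Nr4a1 not counted, became 3 with DESeq2 and 0 with RLE, total counts, no filter, at least 10 counts in every library or all 34 libraries. Against 16-week CD, 1 gene became 226 with DESeq2, 7 with all 34 libraries and 0 by total counts or with at least 10 counts, and 0 members became 2 with DESeq2. Between the 16-week diets, 3 genes became 1130 with DESeq2, 1646 by total counts, 13 with no filter, 0 with at least 10 counts and 1258 with all 34 libraries. Members were not counted there, because these libraries chose them. On TMM-normalized CPM, 10 group means of the members moved by at least their SD in RPM, and 60 by less. The causes were not tested.

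Fold changes of the opposite sign were seen by total counts for Nr4a2 (0.44) and Ier2 (0.12) with leptin. In low weight gainers against 16-week CD, where the main values were near 0, Junb was at -0.32 by total counts and -0.045 with at least 10 counts, and Ier2 at -0.0051 with DESeq2, -0.0069 with RLE, -0.17 by total counts and -0.024 with at least 10 counts.

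Leaving out 1 library at a time gave 30 to 4635 genes and 0 to 4 members with leptin (highest without 16 L replicate 18), 8 to 1700 and 0 to 4 for the 4-week diets (highest without CD replicate 11), 596 to 2732 and 0 to 3 for low weight gainers against 16-week HFD, 0 to 1 and 0 to 0 against 16-week CD, and 1 to 2222 genes for the 16-week diets. Signs changed in some of these fits for Fosb (-0.089 to 0.71) against 16-week HFD, for Nr4a1 (-0.45 to 0.023), Fosb (-0.47 to 0.39), Junb (-0.36 to 0.38) and Ier2 (-0.12 to 0.19) against 16-week CD, and for Nr4a2 (-0.34 to 0.76) and Jun (-0.36 to 0.012) between the 16-week diets. Of the 5 genes most like Nr4a1, 0 stayed among the first 5 with group means removed. No paired analysis was possible because the replicate numbers differ between the groups compared. Groups of 3 libraries and the low reads of Nr4a3, Atf3 and Fosb limit what could be detected.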
